A study of Mus musculus with 8 samples.

Results

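The genes described here were 189 mouse zinc finger genes whose symbol is Zfp followed by a number. Among the 15538 genes measured, they were chosen by name, by protein-coding annotation and by their measured level, a mean of at least 200 normalised reads over 8 libraries. That mean uses both groups, so levels are given as description. Zfp36 was left out because it belongs to another class of zinc finger. Of 334 such Zfp genes measured, 189 met the level and 145 did not. The members nearest the limit were Zfp324 at a mean of 201 normalised reads, Zfp667 at 205 and Zfp930 at 208. The nearest genes below it were Zfp286 at 195, Zfp87 at 192 and Zfp28 at 184. A normalised read is a read count divided by a size factor of its library.

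Expression was measured by bulk RNA sequencing of polyadenylated RNA from primary neurospheres, which are neural stem cells of the mouse embryo grown as floating clumps. The labels give 4 libraries as wild type (Phf23+/+) and 4 as Phf23 knockout (Phf23-/-), all from the same kind of culture. Phf23 encodes a PHD finger protein, and the study asked how its loss holds back the differentiation of these cells. Strain, embryonic day and the making of the allele are not stated, nor whether replicates were separate cultures. The p-values therefore reflect the spread among these libraries, which may be technical.

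The targeted gene, Phf23, had 720, 766, 788 and 919 normalised reads in wild-type libraries 1 to 4 and had 1607, 1528, 1429 and 1361 in libraries 1 to 4 labelled knockout. It was higher in the latter by 0.89 ± 0.106 on the log2 scale (SE, n = 4 per group), with a limma-trend FDR of 0.000581, a direction opposite to loss of the transcript. The second group is therefore called the libraries labelled knockout.

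Zfp proteins mostly belong to the C2H2 class, in which a pair of cysteines and a pair of histidines hold a zinc ion and fold a short finger that reads DNA. Fingers are strung in arrays, and the array sets which DNA sequence the protein binds. Many members also carry a KRAB domain, which recruits the corepressor Trim28 and, through it, Setdb1 and HP1 proteins that pack chromatin with methylated histone H3 lysine 9. KRAB zinc finger genes arose by repeated local duplication, lie in clusters on the chromosomes and are best known for silencing retroelements and for keeping imprints. Others, without a KRAB domain, act as activators, as chromatin cofactors or on RNA.

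A KRAB motif, sought as short amino acid patterns, was found in predicted proteins of 78 members and not counted in the other 111. A KRAB domain that departs from these patterns would be missed. Below, KRAB genes or members are those with the motif, and no KRAB means only that none was matched. The 189 members had a median of 10 C2H2 fingers and up to 35, and 19 had 1 or none. The finger-coding DNA below is shown because it is the shared feature of the class, for 8 of the members whose call held both before and after the subtraction of a length and base-composition trend described further on. Each run codes for 1 complete finger and the linker that follows, 5′ to 3′ on the coding strand of the GRCm38 (mm10) assembly, in a single coding exon of the GENCODE M21 annotation. Capitals mark the codons of the paired cysteines and histidines that hold zinc.
Zfp948 (KRAB, lower; chr17:21587193-21587270, plus strand): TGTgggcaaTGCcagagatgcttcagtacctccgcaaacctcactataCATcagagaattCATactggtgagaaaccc
Zfp809 (KRAB, lower; chr9:22239019-22239096, plus strand): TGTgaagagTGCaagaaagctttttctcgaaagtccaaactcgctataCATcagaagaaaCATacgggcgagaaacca
Zfp866 (KRAB, lower; chr8:69766402-69766479, minus strand): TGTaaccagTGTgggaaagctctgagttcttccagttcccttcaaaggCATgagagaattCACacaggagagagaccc
Zfp869 (KRAB, lower; chr8:69707301-69707378, minus strand): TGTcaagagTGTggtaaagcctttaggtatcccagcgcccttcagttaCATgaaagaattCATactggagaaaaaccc
Zfp281 (no KRAB, lower; chr1:136626063-136626140, plus strand): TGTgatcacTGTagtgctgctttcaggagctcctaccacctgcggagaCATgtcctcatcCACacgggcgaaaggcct
Zfp574 (no KRAB, higher; chr7:25081052-25081129, plus strand): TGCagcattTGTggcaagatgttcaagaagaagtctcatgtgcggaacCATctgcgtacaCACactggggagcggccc
Zfp553 (no KRAB, higher; chr7:127235527-127235604, plus strand): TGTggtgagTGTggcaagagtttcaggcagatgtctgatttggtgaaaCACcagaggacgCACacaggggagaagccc
Zfp467 (no KRAB, higher; chr6:48438988-48439065, minus strand): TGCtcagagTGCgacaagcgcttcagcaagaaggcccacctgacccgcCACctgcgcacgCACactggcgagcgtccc

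Recovered depth ran from 15647304 to 19462516 reads per library. Within each library, the deviation of a gene from its mean changed with transcript length, by 0.26, 0.20, 0.08 and 0.06 log2 units per doubling of length in wild-type libraries 1 to 4 and by -0.24, -0.31, -0.09 and 0.04 in libraries 1 to 4 labelled knockout. The groups did not overlap in this slope, so length and genotype cannot be fully told apart in this design. Of 9 neural stem cell markers all were measured, and their summed level ran from 138231 to 146703 normalised reads over the wild types and from 158156 to 196821 over the libraries labelled knockout. The largest part was Vim, at 67797 ± 4334 against 86985 ± 14997 (SD, n = 4 each) and not called (limma-trend FDR 0.0633). Fabp7 and Hes5 were called higher, none of the 9 was called lower, and Notch1 was at -0.63 on the log2 scale (FDR 0.102). The 5 markers of young neurons summed to 15158 to 20379 and to 9167 to 12035, and nearly all of that sum was Map2, at 17464 ± 2504 against 10077 ± 1236 (SD, n = 4 each) and called lower. Rbfox3, at 15.7 ± 8.42 against 45.0 ± 3.39, was called higher by limma-trend, and Tubb3, Dcx and Stmn2 were not called. Of the microglial, endothelial, mesenchymal and blood lists, P2ry12 alone of the microglial markers was measured, and no list summed to more than 57.6 normalised reads in any library. The part that any change of cell content has in the results below was not tested. In bulk RNA, fewer cells of a type and less RNA per cell cannot be told apart.

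In the libraries labelled knockout the 189 Zfp genes stood mostly lower, by small amounts. The median log2 difference, labelled knockout minus wild type, was -0.19 over the members against 0.00 over all genes tested, and 133 of 189 members lay below 0. By limma-trend at an FDR under 0.05, 17 members (8.99%) were higher and 51 (27.0%) lower. Over all 15538 genes, 14.8% were called higher, 14.8% lower and 29.6% either way, so the called share of the members exceeded the background on the lower side and fell short of it on the higher side. Among all 9639 genes with a mean of at least 200, 1933 were higher and 1826 lower, with a median of 0.01. No member changed 2-fold: the extreme was Zfp428 at 0.96 on the log2 scale.

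Wild-type and labelled knockout libraries did not overlap at 56 members, with 12 higher and 44 lower under the knockout label, where 27.7% of all genes did not overlap. Summed, the members made up 0.866 ± 0.0381% of a wild-type library and 0.718 ± 0.0719% of one labelled knockout (SD, n = 4 each). By library, the median deviation of the members from their gene means was 0.18, 0.15, 0.03 and 0.05 in wild type 1 to 4 and -0.14, -0.16, -0.05 and 0.01 in labelled knockout 1 to 4. Wild type 1 and 2 were thus the high libraries and labelled knockout 1 and 2 the low ones, and labelled knockout 4 lay close to wild type 3. These same libraries had the steepest length slopes. Without any of wild type 1, wild type 2, labelled knockout 1, labelled knockout 2 or labelled knockout 3 the calls fell to between 5 and 11 higher and between 19 and 36 lower, and 24 of the 68 calls held in all 8 leave-one-out fits.

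**Figure D1:**
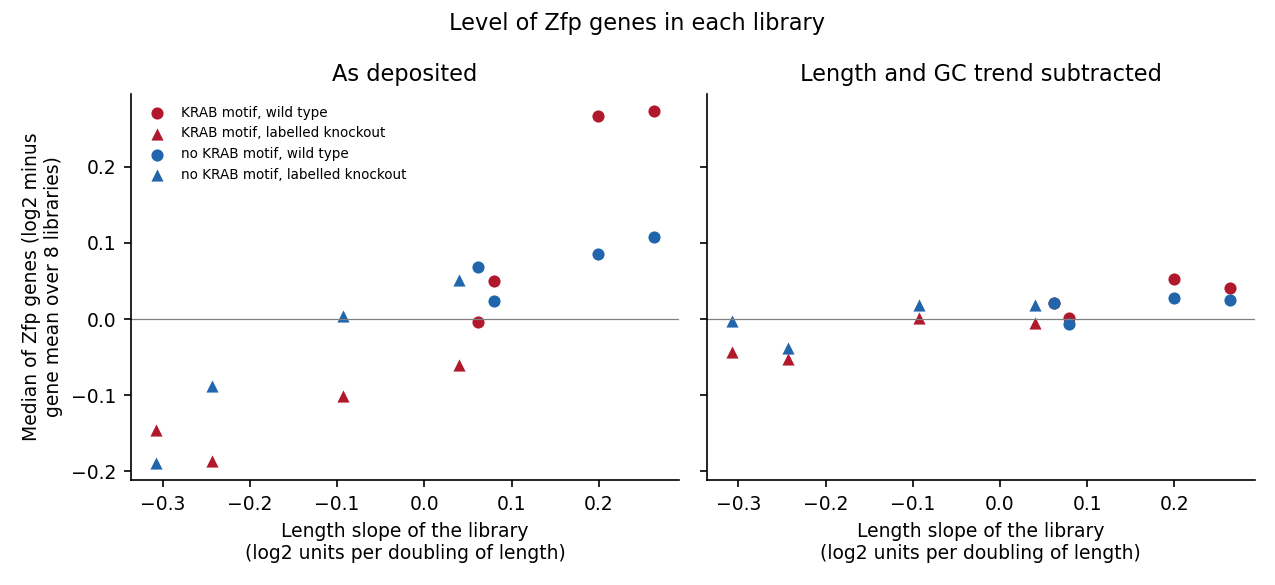
Median level of Zfp genes in each library against the length slope of that library, as deposited (left) and after the length and GC trend was subtracted (right). Each point is 1 library, in log2 units relative to the mean of each gene over 8 libraries. Red marks 78 members with a KRAB motif, blue 111 without, circles wild type and triangles the libraries labelled knockout. On the left, KRAB medians run from -0.19 in labelled knockout 1 to 0.27 in wild type 1, and on the right all medians lie between -0.05 and 0.05.

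The calls among the members went with transcript length. Of 48 members with a longest annotated transcript of 6000 nt or more, none was higher and 27 were lower, with a median log2 difference of -0.43. None of these 48 was higher at an unadjusted limma p under 0.05, by edgeR, by DESeq2 or by limma-voom either. All genes of that length with a mean of at least 200 had a median of -0.44, with 30 higher and 964 lower of 1690. From 4000 to 6000 nt, 3 of 57 members were higher and 13 lower, and the median was -0.21 against -0.16 for all genes of that length.

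Below 4000 nt the members stood lower than other genes of like length. From 3000 to 4000 nt, 2 of 44 members were higher and 6 lower, with a median of -0.15 against 0.02. From 2000 to 3000 nt, 7 of 29 were higher and 3 lower, with 0.06 against 0.20. Under 2000 nt, 5 of 11 were higher and 2 lower, with 0.29 against 0.47. These medians are descriptions of a set chosen with results known, and they carry no test.

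Base composition ran beside length. Of 59 members with a transcript GC content under 42%, none was higher and 25 were lower, with a median of -0.34, and none of the 59 was higher at an unadjusted limma p under 0.05 or by edgeR, DESeq2 or limma-voom. Of 1200 genes of that GC with a mean of at least 200, 28 were higher and 461 lower (38.4%), near the 42.4% of the members, with a median of -0.26. Of 65 members with at least 50% GC, 15 were higher and 4 lower, with a median of 0.13. Of 4535 genes of at least that GC and level, 1470 were higher and 354 lower, with a median of 0.20. Across the 189 members, the log2 difference had a Spearman's rho of -0.52 against length and of 0.55 against GC. These are correlations across genes measured in the same 8 libraries, not across replicates.

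To set each member against genes of like length and GC, a smooth trend with both was subtracted from every library and the fit was repeated. After this, 12 members (6.35%) were higher and 14 (7.41%) lower by limma-trend, where 10.5% and 7.86% of all genes were called (18.4% either way). The median log2 difference of the members was -0.03. Among the 9639 genes with a mean of at least 200, 14.6% were higher and 8.58% lower, with a median of 0.03. The members were thus called higher less often than all genes above the same limit. Those genes had a median level of 927 normalised reads against 492 for the members, so the sets differ in level. The rho with length and GC became 0.10 and 0.22. Among the 78 KRAB members the rho with length went from -0.28 to 0.38, so the subtraction turned its sign there, and among the 111 others it went from -0.66 to -0.09. Of the 68 members called before, 54 shrank by more than 1.5 times or changed sign, and 20 were called in the same direction both times, 6 higher and 14 lower. With length alone in the trend, 15 were higher and 21 lower, where 11.7% and 8.39% of all genes were called (20.1% either way), and the median was -0.08. Genes with a mean of at least 200 then had 16.3% higher and 9.45% lower, with a median of 0.03.

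**Figure D2:**
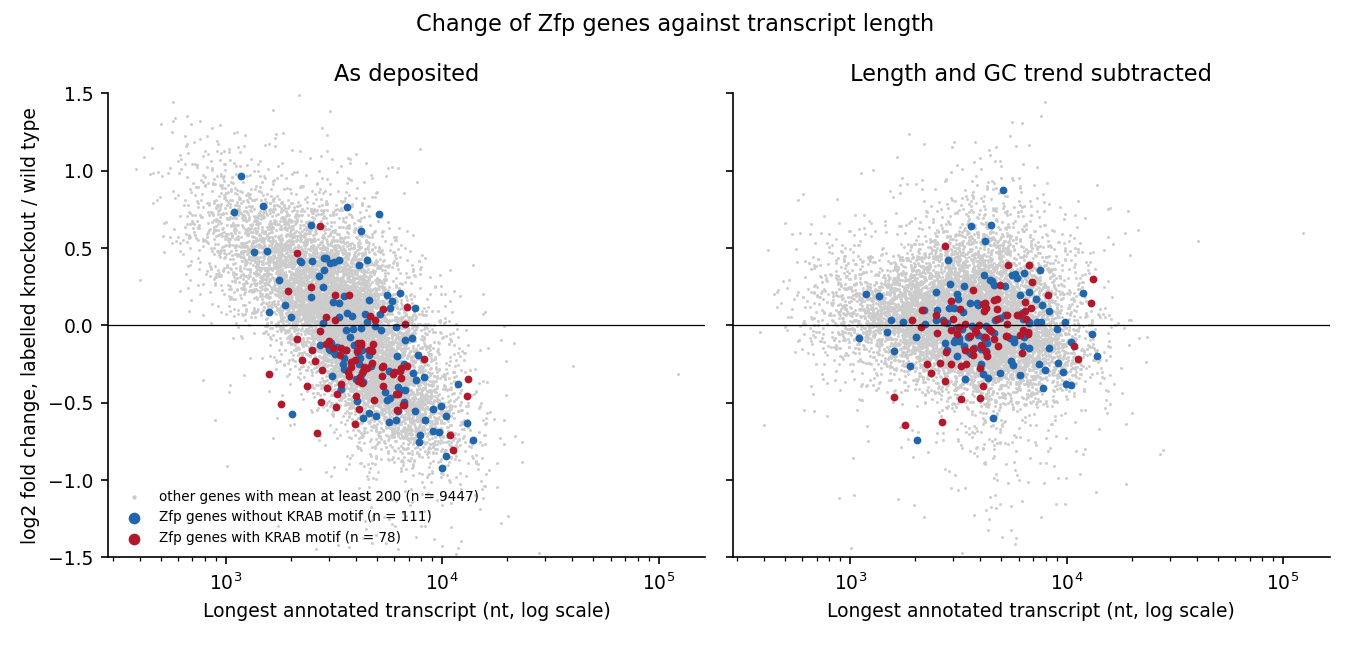
Log2 difference of each gene between the libraries labelled knockout and wild type against the length of its longest annotated transcript (log axis), as deposited (left) and after the length and GC trend was subtracted (right). Grey points are 9447 other genes with a mean of at least 200 and an annotated transcript, red and blue points Zfp genes with and without a KRAB motif, and genes beyond 1.5 in either direction lie outside the axes. The members follow the downward slope of the grey cloud on the left, with a median of -0.43 at 6000 nt or more, and centre near 0 on the right, with a median of -0.03.

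The 14 falls that held after subtraction were those of 8 KRAB genes and of Zfp292, Zfp462, Zfp704, Zfp236, Zfp281 and Zfp91, which have no KRAB motif. Zfp462, a many-fingered nuclear protein known for guarding cell identity through heterochromatin, was at 2945, 2591, 2372 and 2340 normalised reads in wild-type libraries 1 to 4 and at 1173, 1059, 1498 and 2195 in labelled knockout 1 to 4. All 4 wild-type libraries lay above all 4 others, with labelled knockout 4 just under them. Zfp462 fell by 0.84 ± 0.188 on the log2 scale (SE, n = 4 per group, limma-trend FDR 0.00939), by 0.38 after subtraction (FDR 0.0119), and was at -0.38 (FDR 0.0104) without the 4 libraries of steepest slope.

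Zfp281, a GC-box binding factor that restrains pluripotency genes, was at 1213, 1073, 1071 and 1084 in wild type and at 666, 653, 749 and 922 in the libraries labelled knockout, with no overlap. It fell by 0.58 ± 0.121 (limma-trend FDR 0.00745), and by 0.31 after subtraction (FDR 0.0238). Zfp704, with a 13834 nt transcript the longest member, was at 4281, 3701, 3372 and 3355 in wild type and at 2008, 1669, 2352 and 2905 in the libraries labelled knockout, also with no overlap. Its log2 difference was -0.74 ± 0.153 (limma-trend FDR 0.00728) and -0.20 after subtraction (FDR 0.0435), so most of the fall lay on the length and GC trend. Zfp704 overlaps the gene C030034L19Rik, and reads of overlapping genes cannot be told apart here.

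Zfp292, the member with the largest fall, was at 1655, 1328, 1027 and 873 in wild type and at 576, 439, 698 and 867 in the libraries labelled knockout. Wild type 4 and labelled knockout 4 were nearly level, and wild type 1 was highest. The log2 difference was -0.92 ± 0.218 (limma-trend FDR 0.0115), -0.38 after subtraction (FDR 0.0473) and -0.28 (FDR 0.133) without the 4 libraries of steepest slope. Zfp236 differed by -0.69 (limma-trend FDR 0.014) and by -0.30 after subtraction (FDR 0.048). Zfp91, a ubiquitin ligase whose span overlaps Cntf, differed by -0.48 (limma-trend FDR 0.00971) and by -0.23 after subtraction (FDR 0.0385).

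Among KRAB members, Zfp948 on chromosome 17 had one of the lowest limma-trend FDR values after subtraction. It was at 559, 550.0, 493 and 402 in wild type 1 to 4 and at 290, 266, 330.3 and 348 in labelled knockout 1 to 4, with no overlap. Its log2 difference of -0.69 ± 0.137 (limma-trend FDR 0.00643) became -0.62 after subtraction (FDR 0.00307), and all 8 leave-one-out fits called it. Zfp9 was at 357, 310.1, 320 and 285 against 173, 184, 223 and 239.7, with no overlap, and differed by -0.64 ± 0.139 (limma-trend FDR 0.00874) and -0.47 after subtraction (FDR 0.0132). Zfp84 differed by -0.54 (limma-trend FDR 0.013) and -0.39 after subtraction (FDR 0.0295). Zfp948, Zfp9 and Zfp84 have transcripts of 2652, 3968 and 4113 nt, so they are not among the long members.

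In the list of imprint and retroelement control, 2 of 4 members, all KRAB genes, were lower, where 27.0% of all members and 14.8% of all genes were lower. None of the 4 was higher at an unadjusted limma p under 0.05 or by edgeR or DESeq2. Zfp809, which binds the primer binding site of murine leukaemia virus and starts its silencing, was at 309, 258, 201 and 236 in wild type and at 169, 171, 148 and 215 in the libraries labelled knockout. The groups overlapped, since labelled knockout 4 stood above wild type 3. Zfp809 fell by 0.51 ± 0.162 (limma-trend FDR 0.0328) and by 0.64 after subtraction (FDR 0.0156). That call was lost without wild type 1, wild type 2, labelled knockout 1, labelled knockout 2 or labelled knockout 3, where its FDR lay between 0.0623 and 0.106.

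Zfp445, which with Zfp57 keeps imprints in the embryo, was at 3366, 3091, 2635 and 2616 in wild type and at 1886, 1412, 2139 and 2748 in the libraries labelled knockout. Labelled knockout 4 lay within the wild-type range. Zfp445 fell by 0.55 ± 0.171 (limma-trend FDR 0.0304) and was at -0.18 after subtraction (FDR 0.269). Without wild type 1, wild type 2, labelled knockout 1 or labelled knockout 2 its FDR lay between 0.0648 and 0.0904. Zfp57 was at 256 ± 6.14 against 218 ± 13.4 with no overlap (SD, n = 4 each), a log2 difference of -0.23 with a limma-trend FDR of 0.143. Zfp568, which silences a placental Igf2 transcript, was at 254 ± 24.4 against 212 ± 17.6, with an FDR of 0.133.

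Of the 17 rises, 16 were of genes without a KRAB motif. Zfp467, known as a cofactor in the choice between fat and bone fates of marrow stroma, was called in all 8 leave-one-out fits. It was at 281, 267, 271 and 303 in wild type 1 to 4 and at 454, 552, 452 and 454 in labelled knockout 1 to 4. The groups lay far apart, and labelled knockout 2 was the highest library. Zfp467 rose by 0.76 ± 0.114 on the log2 scale (limma-trend FDR 0.00213), by 0.64 after subtraction (FDR 0.00157), and by 0.66 without the 4 libraries of steepest slope (FDR 0.000509). With the slopes as a covariate its difference was 0.60 with an FDR of 0.0979.

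Zfp444 was at 298, 401, 529 and 514 in wild type and at 746, 777, 637 and 656 in the libraries labelled knockout, with no overlap. Its log2 difference was 0.72 ± 0.168 (limma-trend FDR 0.0108) and 0.87 after subtraction (FDR 0.0147), and its transcript is 5104 nt. Zfp688, the only KRAB member that was called higher, was at 190.4, 161, 190.1 and 232 against 335, 356, 247 and 274, with no overlap. It rose by 0.64 ± 0.155 (limma-trend FDR 0.0122) and by 0.51 after subtraction (FDR 0.0147).

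Zfp622, whose product helps to mature the large ribosomal subunit, was at 433, 491, 516 and 563 in wild type and at 785, 726, 588 and 602 in the libraries labelled knockout, with no overlap. It rose by 0.43 ± 0.128 (limma-trend FDR 0.0269) and by 0.65 after subtraction (FDR 0.00957). Its FDR was 0.0601 to 0.0923 without wild type 1, wild type 2, labelled knockout 1 or labelled knockout 2. Zfp574 and Zfp553 also rose, by 0.39 (limma-trend FDR 0.0335) and 0.42 (FDR 0.0191), and by 0.33 (FDR 0.0137) and 0.26 (FDR 0.0434) after subtraction. The first was not called without wild type 1, 2 or 3 or labelled knockout 1 or 3 (FDR 0.0524 to 0.111), and Zfp553, which overlaps Sept1, not without wild type 1, wild type 2 or labelled knockout 1 (FDR 0.0591 to 0.0675).

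**Figure D3:**
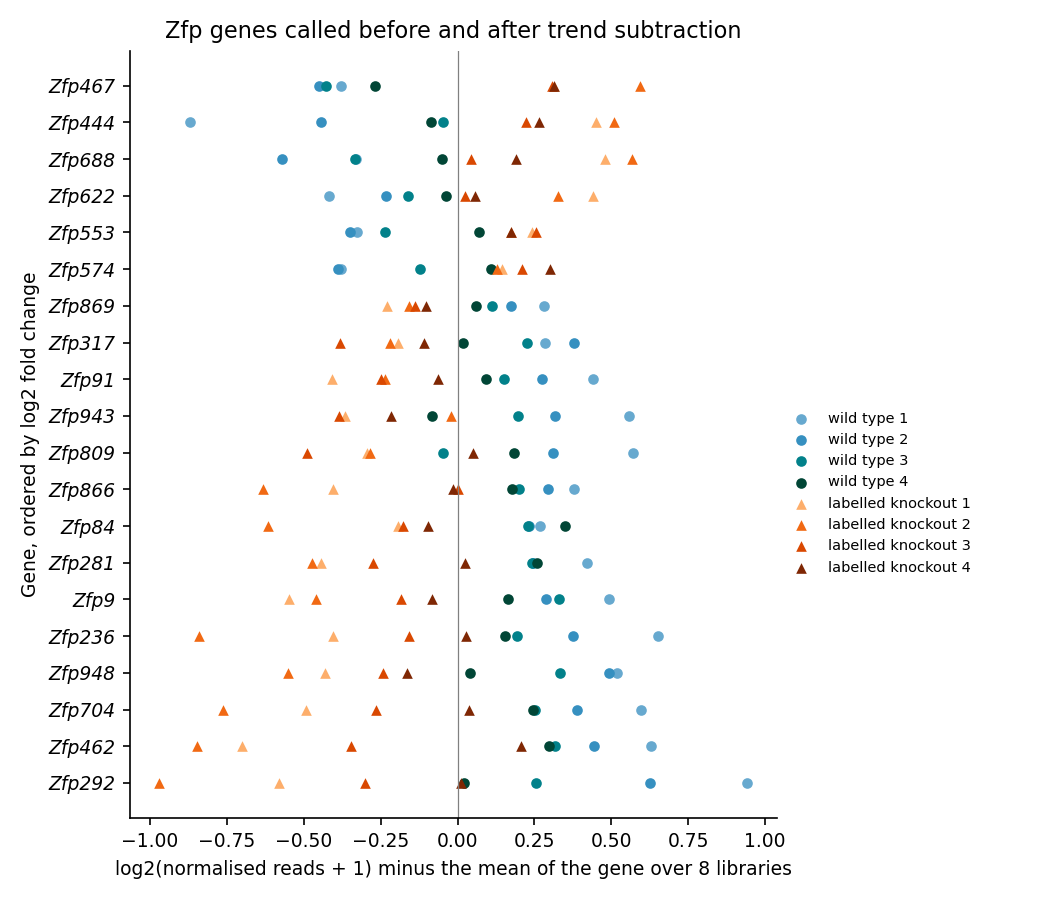
Normalised reads of the 20 Zfp genes called in the same direction before and after trend subtraction, as log2(value + 1) minus the mean of each gene over the 8 libraries (horizontal axis), in order of log2 difference. Each point is 1 library, circles wild type and triangles the libraries labelled knockout. Triangles lie left of circles for the 14 lower genes and right for the 6 higher ones at most genes, with overlap at Zfp809 and Zfp943, and labelled knockout 4 (darkest triangle) lies nearest to the wild-type points at Zfp462, Zfp292 and Zfp236.

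Of the 5 largest rises as deposited, those of Zfp467 and Zfp444 were also called after subtraction, and those of Zfp428, Zfp771 and Zfp580 were not. Zfp428 was at 374, 400.3, 511 and 657 in wild type and at 1231, 1127, 742 and 708 in the libraries labelled knockout, a 1.96-fold higher mean with no overlap. Its log2 difference of 0.96 (limma-trend FDR 0.00871) became 0.20 (FDR 0.179), and its transcript is 1182 nt with 64.4% GC. Zfp771 and Zfp580 were at 0.77 (limma-trend FDR 0.0275) and 0.73 (FDR 0.0242) and turned to -0.04 and -0.08 after subtraction. Both overlapped between groups, and both lost their call without wild type 1, wild type 2, labelled knockout 1 or labelled knockout 2 (FDR 0.0563 to 0.086), Zfp771 also without labelled knockout 3.

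Zfp26, a KRAB gene with an 11276 nt transcript, showed the same on the lower side. It was at 1160.1, 1031, 1059.8 and 877 in wild type and at 540.1, 509.7, 625 and 694 in the libraries labelled knockout, with no overlap. Its log2 difference of -0.80 ± 0.127 (limma-trend FDR 0.00274) became -0.22 (FDR 0.0716) after subtraction, yet was -0.55 (FDR 0.000457) without the 4 libraries of steepest slope. Zfp871 went from -0.71 (limma-trend FDR 0.0114) to -0.13 and Zfp407 from -0.71 (FDR 0.0126) to -0.29, neither called after subtraction.

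Another 6 members were called only after subtraction, all of them higher: Zfp277, Zfp870, Zfp710, Zfp668, Zfp90 and Zfp651. Their log2 differences as deposited lay between 0.01 and 0.21 and were not called, and between 0.29 and 0.39 after subtraction, with limma-trend FDR from 0.016 to 0.0453. Their transcripts are 4504 to 6731 nt, and all 6 overlapped between groups as deposited. Zfp668 overlaps its neighbour Zfp646.

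Members with and without a KRAB motif were called lower in like shares as deposited, 25.6% and 27.9%. Of 78 KRAB members, 1 was higher and 20 lower, with a median log2 difference of -0.27 and a median GC of 41.99%. Of 111 members without the motif, 16 were higher and 31 lower, with a median of -0.14 and a GC of 49.7%. After the length and GC trend was subtracted the counts were 3 and 8 for KRAB members, median -0.03, and 9 and 6 for the others, median -0.02. With length alone subtracted, 2 of the KRAB members were higher and 13 lower, with a median of -0.15, and 13 of the others were higher and 8 lower, with a median of -0.03. The 179 other measured genes with a KRAB motif, which had a median level of 79.6 normalised reads, had 1 higher and 25 lower, with a median of -0.24 before and -0.13 after subtraction. No test of KRAB against other members was made.

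The genes form clusters on the chromosomes, with 44 members on chromosome 7, 24 on chromosome 17 and 17 on chromosome 8. With clusters defined as at least 3 members whose starts follow each other within 1 Mb, 84 members lay in 16 clusters, 52 of them KRAB genes. The cluster median was below 0 in 11 clusters and above 0 in 5. In clusters 11 of 84 members were higher and 21 lower, with a median of -0.22, and outside clusters 6 of 105 were higher and 30 lower, with a median of -0.18. The clusters with a median above 0 were on chromosomes 6 and 7, and genes with the KRAB motif made up 5 of their 25 members.

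**Figure D4:**
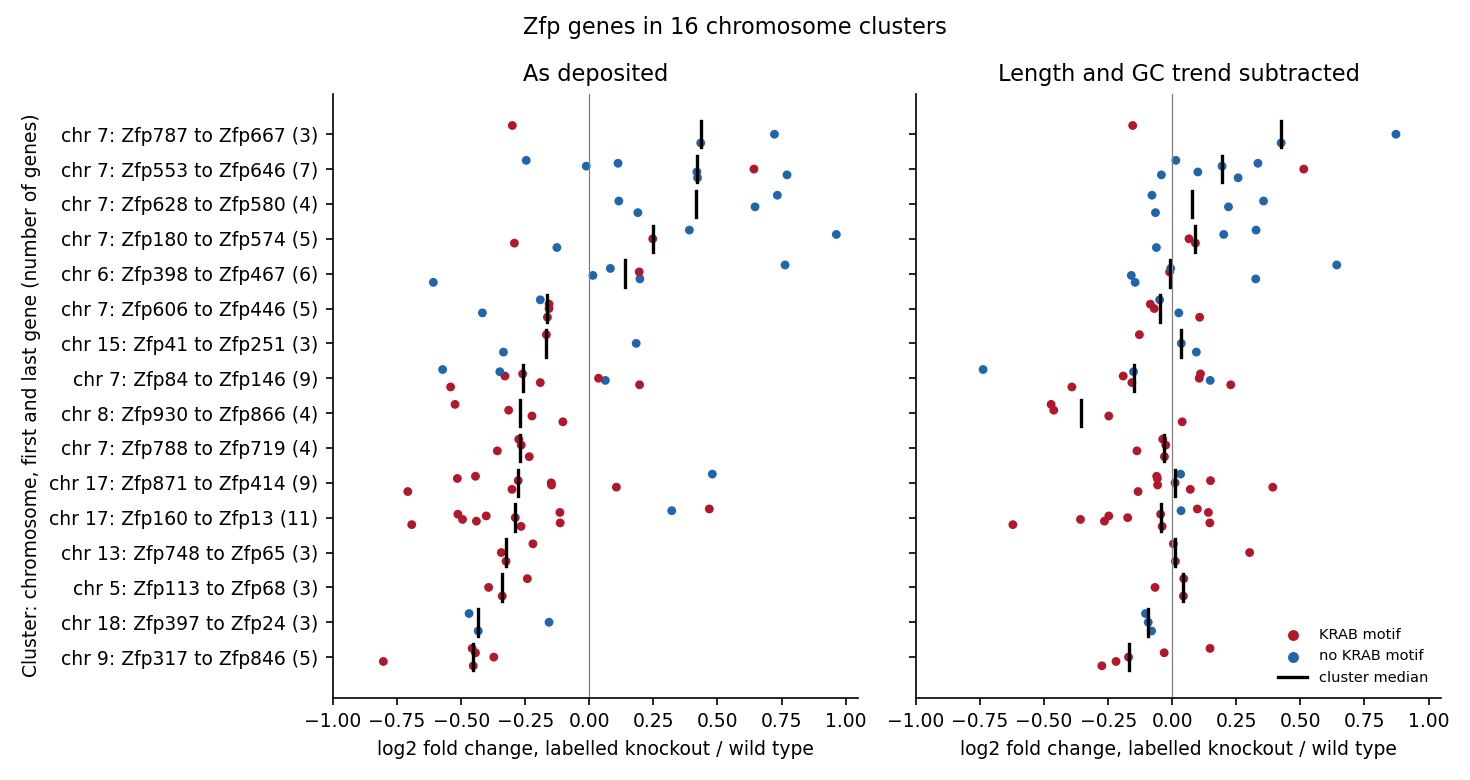
Log2 difference, labelled knockout against wild type, of the 84 Zfp genes in 16 chromosome clusters, as deposited (left) and after the length and GC trend was subtracted (right). Each row is a cluster, named by chromosome and by its first and last member, each point a gene, red with and blue without a KRAB motif, and the black bar the cluster median. Clusters are ordered by the median on the left, between -0.45 and 0.43, and on the right most medians lie near 0, with the cluster of Zfp866 at -0.35 and that of Zfp444 at 0.42.

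The cluster of Zfp866 on chromosome 8 was the one whose median moved further from 0 after subtraction. Its 4 members Zfp930, Zfp868, Zfp869 and Zfp866, all KRAB genes, spread over 0.582 Mb, and their median log2 difference went from -0.27 to -0.35. The 1 other gene within the span was called lower, at -1.21 and, after subtraction, -1.19, further from 0 than any of the 4 members. Here and below, other genes of a span are measured genes that lie wholly within it, and Zfp genes under the level are left out. Zfp866 was at 599, 564, 529 and 521 in wild type and at 348, 297, 461 and 456 in the libraries labelled knockout, with no overlap. It fell by 0.52 ± 0.146 (limma-trend FDR 0.0201) and by 0.47 after subtraction (FDR 0.0221). Zfp869 was at 734, 682, 653 and 629 against 514, 541, 548 and 562, with no overlap, and fell by 0.31 ± 0.0995 (limma-trend FDR 0.0323) and by 0.46 after subtraction (FDR 0.00644).

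Both calls depended on single libraries. Zfp866 was not called without wild type 1, wild type 2 or labelled knockout 1 (limma-trend FDR 0.0587 to 0.0681), and Zfp869 not without wild type 1, 2 or 3 or labelled knockout 1, 2 or 3 (FDR 0.0503 to 0.101). Without the 4 libraries of steepest slope they were at -0.19 (FDR 0.435) and -0.21 (FDR 0.369). Zfp866 overlaps Atp13a1 and shares 11.0% of its 75-base words with Gm20422, so its reads are uncertain. Zfp868 and Zfp930 were at -0.22 (limma-trend FDR 0.288) and -0.10 (FDR 0.658).

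The RefSeq promoters of Zfp866 and Zfp869 are shown because these neighbours were lower together. Each run is 250 bases before to 50 after a RefSeq gene start in GRCm38.p6, 5′ to 3′ on the minus strand. Capitals mark CCAATCA, the letters of a CCAAT box with the next pair of bases, searched on both strands after these sequences had been read. These RefSeq starts lie 6178 bases from the GENCODE start of Zfp869 and 16267 bases from that of Zfp866.
Zfp869 (chr8:69716853-69717152, minus strand): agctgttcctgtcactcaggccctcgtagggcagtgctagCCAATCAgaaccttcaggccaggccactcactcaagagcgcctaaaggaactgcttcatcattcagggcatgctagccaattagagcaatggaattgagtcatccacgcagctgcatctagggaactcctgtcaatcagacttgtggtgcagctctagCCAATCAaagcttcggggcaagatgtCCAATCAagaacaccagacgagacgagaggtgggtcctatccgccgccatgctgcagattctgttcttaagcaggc
Zfp866 (chr8:69774862-69775161, minus strand): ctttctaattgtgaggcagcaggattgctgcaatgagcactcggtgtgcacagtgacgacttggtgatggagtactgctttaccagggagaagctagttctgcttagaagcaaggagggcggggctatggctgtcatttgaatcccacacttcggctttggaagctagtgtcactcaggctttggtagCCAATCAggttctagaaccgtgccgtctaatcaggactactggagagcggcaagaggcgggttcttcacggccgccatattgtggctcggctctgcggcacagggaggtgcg

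The promoter of Zfp869 held CCAATCA at 3 places and that of Zfp866 at 1. Of 156 members matched to a promoter of this length, 25 (16.03%) held it, 20 of 70 KRAB members (28.6%) and 5 of 86 others (5.81%). Of all 32851 RefSeq promoters of this length, 7.82% held it. The shorter CCAAT, which every CCAATCA contains, was at 4 places in Zfp869 and 1 in Zfp866, and it was held by 44.2% of the members' promoters and 37.4% of all promoters. The motif was in 2 of 16 promoters of members called higher and in 8 of 42 of those called lower. Members' promoters had a median of 16 CG dinucleotides against 7 in all promoters. Each member gave the 1 promoter nearest its GENCODE start, whereas all promoters include those of genes of any level or type. The sets are thus unlike, and promoters of genes of like level were not compared. A match of letters is a description and not a bound site.

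On chromosome 17, the cluster from Zfp160 to Zfp13 held 11 members, 10 of them KRAB genes, and had a median of -0.29. Zfp948, Zfp945, Zfp942 and Zfp943 fell, by 0.69, 0.51, 0.44 and 0.49, and none was higher by limma-trend, edgeR or DESeq2, with 1 higher at an unadjusted p under 0.05. After subtraction only Zfp948 and Zfp943 were called, at -0.62 and -0.36 (limma-trend FDR 0.0327), and the cluster median was -0.05. Zfp943 and Zfp942 lost their calls without wild type 1, wild type 2, labelled knockout 1 or labelled knockout 3 (FDR 0.0501 to 0.0916). At the telomeric end Zfp13 and Zfp213, with GC contents of 59.1% and 59.5%, were at 0.47 (limma-trend FDR 0.0817) and 0.32 (FDR 0.124), opposite in sign to the AT-rich KRAB genes before them.

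The other chromosome 17 cluster, from Zfp871 to Zfp414, had 9 members, 8 of them KRAB genes. Zfp871, Zfp81 and Zfp101 fell by 0.71, 0.52 and 0.44 and Zfp414 rose by 0.48, and the median moved from -0.28 to 0.01 after subtraction, when only Zfp870 was called. Zfp81 lost its call without wild type 1, 2 or 3 or labelled knockout 1 (limma-trend FDR 0.0564 to 0.0808), Zfp101 without wild type 1 or 2 or labelled knockout 1 or 3 (FDR 0.0756 to 0.0997), and Zfp414 without wild type 1, 2 or 3 or labelled knockout 1, 2 or 3 (FDR 0.0559 to 0.103). Zfp414 shares 43.0% of its 75-base words with Gm20507, so its count is uncertain.

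On chromosome 9, Zfp26, Zfp317, Zfp266 and Zfp846 of the 5 KRAB members fell, by 0.80, 0.45, 0.44 and 0.46, which gave the lowest cluster median, -0.45. After subtraction the median was -0.17 and Zfp317 alone was called, at -0.27 (limma-trend FDR 0.0339). Zfp317 was at 902, 963, 865 and 749.9 in wild type and at 647, 636, 568 and 686 in the libraries labelled knockout, with no overlap. Its call was lost without wild type 2 (FDR 0.0506), and those of Zfp266 and Zfp846 without wild type 1, wild type 2 or labelled knockout 1 (FDR 0.0602 to 0.0853).

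The chromosome 7 cluster from Zfp84 to Zfp146 held 9 members within 0.401 Mb and had a median of -0.26, and -0.15 after subtraction. Zfp84 and Zfp260 fell, by 0.54 and 0.35, the latter called in 2 of 8 leave-one-out fits (limma-trend FDR 0.0534 to 0.145 in the others) and not after subtraction. Zfp146, an array of fingers with little else, was at 1667, 1775, 1719 and 1665 in wild type and at 1148, 629, 1384 and 1731 in the libraries labelled knockout. The wild-type libraries were nearly level, while labelled knockout 2 fell far below and labelled knockout 4 stood among the wild types. Its log2 difference was -0.57 with a limma-trend FDR of 0.0783.

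Of the 5 clusters with a median above 0, 4 lay on chromosome 7, with a median member GC from 46.96% in that of Zfp444 to 63.6% in that of Zfp580. From Zfp553 to Zfp646, Zfp771, Zfp688, Zfp768 and Zfp553 of 7 members rose, by 0.77, 0.64, 0.42 and 0.42, with a median of 0.42 and 0.19 after subtraction. The 22 other genes within that span had 4 higher and 1 lower, with a median of 0.21. Zfp768 was at 493, 566, 535.5 and 605.5 in wild type and at 736, 721, 744 and 734 in the libraries labelled knockout, with no overlap. It was called in all 8 leave-one-out fits, as Zfp688 was, but its difference after subtraction was 0.10 (limma-trend FDR 0.479).

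Zfp579 and Zfp580 of the 4 members from Zfp628 to Zfp580 rose, by 0.65 and 0.73, with a median of 0.42 that became 0.08. Zfp428 and Zfp574 of the 5 from Zfp180 to Zfp574 rose, with a median of 0.25 and 0.09. From Zfp787 to Zfp667, Zfp444 rose and Zfp787 was at 0.43 (limma-trend FDR 0.0832), and the median was 0.43 and, after subtraction, 0.42. Without the 4 libraries of steepest slope the median from Zfp787 to Zfp667 was -0.007, and with the slopes as a covariate it was -0.06. The call of Zfp579 was lost without wild type 1, wild type 2 or labelled knockout 1 (FDR 0.0521 to 0.059).

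In some clusters the members and the other genes in the span had medians of opposite sign as deposited. From Zfp606 to Zfp446 on chromosome 7 the members were at -0.16 and the 5 other genes at 0.02. From Zfp398 to Zfp467 on chromosome 6 the members were at 0.14 and the 1 other gene at -0.05. The medians lay further apart on chromosomes 15 and 5. On chromosome 15 the 56 other genes between Zfp41 and Zfp251 had 22 higher and none lower, with a median of 0.40 and a GC content of 58.0%, whereas the 3 members had a median of -0.17. Zfp41 fell by 0.34 (limma-trend FDR 0.0445), a call lost without wild type 1, 2 or 3 or labelled knockout 1, 2 or 3 (FDR 0.0694 to 0.142). On chromosome 5 the 14 other genes between Zfp113 and Zfp68 had a median of 0.29, and the 3 KRAB members -0.34. Zfp157 was the called member there, at -0.39 (FDR 0.049), and not without wild type 1, 2 or 3 or labelled knockout 1, 2 or 3 (FDR 0.0648 to 0.146). After subtraction, the member medians were 0.04 in the clusters of chromosomes 15 and 5. Those of the other genes were 0.12 on chromosome 15 and 0.04 on chromosome 5, level with the members there.

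The clusters that follow held few calls. From Zfp398 to Zfp467 on chromosome 6, Zfp398 fell by 0.61 (limma-trend FDR 0.00934) beside the rise of Zfp467, and was at -0.14 after subtraction. On chromosome 18 Zfp24 and Zfp397 fell, by 0.47 and 0.43, with a median of -0.43 over 3 members and -0.09 after subtraction, and Zfp397 lost its call without wild type 1 or 2 or labelled knockout 1, 2 or 3 (FDR 0.0647 to 0.117). Zfp329, at -0.42, was the called member of 5 between Zfp606 and Zfp446 on chromosome 7, and not without wild type 1 or 2 or labelled knockout 1, 2 or 3 (FDR 0.0741 to 0.102). None of the 3 members from Zfp748 to Zfp65 on chromosome 13 or the 4 from Zfp788 to Zfp719 on chromosome 7 was called by limma-trend or edgeR, with 2 lower in each at an unadjusted limma p under 0.05 and 1 and 0 lower by DESeq2.

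In the list of genes with a role in neural development, 5 of 10 members were lower and none higher by limma-trend, edgeR or DESeq2, with a median of -0.39, and 2 were higher at an unadjusted limma p under 0.05. The background was 14.8% lower over all genes and 24.9% and 57.0% for genes of 4000 to 6000 nt and of 6000 nt or more with a mean of at least 200, and the list had a median length of 5320 nt. Another 3 listed genes, Zfp488, Zfp536 and Zfp711, were under the level. The called members were Zfp292, Zfp462, Zfp609, Zfp24 and Zfp365, and after subtraction Zfp292 and Zfp462. Zfp609, which works with the cohesin loader and Integrator in cortical neuron migration, was at 1933, 1642, 1374 and 1395 in wild type and at 708, 608, 1203 and 1441 in the libraries labelled knockout. Labelled knockout 4 lay inside the wild-type range. Zfp609 differed by -0.76 ± 0.235 (limma-trend FDR 0.0304), was not called without wild type 1 or 2 or labelled knockout 1 or 2 (FDR 0.0753 to 0.103), and was at -0.07 (FDR 0.776) without those 4 libraries together.

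Zfp24, needed for oligodendrocytes to mature, was at 4006, 3849, 3659.9 and 3405 in wild type and at 2798, 2239, 2757 and 3028 in the libraries labelled knockout, with no overlap. Its difference of -0.47 ± 0.109 (limma-trend FDR 0.0108) was called in all 8 leave-one-out fits and became -0.10 (FDR 0.357) after subtraction. Zfp365, whose product binds Disc1, was at 3700 ± 135 against 2996 ± 308 (SD, n = 4 each), a difference of -0.31 (limma-trend FDR 0.0322), lost without wild type 1, 2 or 3 or labelled knockout 1 or 2 (FDR 0.0554 to 0.099). Zfp335, which supports progenitor proliferation, was at 540.1 ± 33.8 against 385 ± 142, with a limma-trend FDR of 0.0678, and overlaps Pcif1.

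The transcription factors of striatal and cerebellar development showed no call. Zfp503 was at 116, 114, 253 and 292 in wild type and at 234, 276, 293 and 283 in the libraries labelled knockout. Wild type 1 and 2 were low and wild type 3 and 4 level with the other group, and the limma-trend FDR was 0.109. Zfp423 was at 378 ± 33.3 against 379 ± 50.9, a log2 difference of -0.00 ± 0.128 (SE), and Zfp521, which promotes neural fate, at 826 ± 81.0 against 719.7 ± 63.6 (FDR 0.191). Zfp703, a corepressor related to Zfp503, was at 515 ± 109 against 684 ± 138 (FDR 0.0849).

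In the list of general transcription and chromatin factors 5 of 11 members were lower, Zfp292, Zfp281, Zfp644, Zfp148 and Zfp91, and none was higher by limma-trend, edgeR or DESeq2, with 1 higher by limma-voom and 1 at an unadjusted limma p under 0.05. The list had a median length of 5531 nt, and 14.8% of all genes were lower. Among genes with a mean of at least 200, 24.9% were lower at 4000 to 6000 nt and 57.0% at 6000 nt or more. Zfp644, a partner of the histone methyltransferases Ehmt1 and Ehmt2, differed by -0.55 (limma-trend FDR 0.0147), lost without wild type 1 or 2 or labelled knockout 1 (FDR 0.0502 to 0.0552). Zfp148 differed by -0.52 (FDR 0.0137) and by 0.02 after subtraction, and its FDR without wild type 2 or labelled knockout 1 was 0.05 to 0.0506. Zfp219 was at 2103, 2183, 2992 and 3381 in wild type and at 3749.6, 3196, 3496 and 3413 in the libraries labelled knockout, with a limma-trend FDR of 0.0516. Zfp410, which drives Chd4, and Zfp143, a promoter-bound activator, were at -0.13 (FDR 0.379) and -0.15 (FDR 0.422).

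Of 9 members that act on RNA or the ribosome, 1 was higher, Zfp622, and 2 were lower, Zfp106 and Zfp638, and Zfp593 was under the level. Over all genes 14.8% were higher and 14.8% lower, and the list had a median length of 4417 nt. Zfp106, an RNA-binding protein needed by motor neurons, was at 4964, 4861, 3924 and 3996 in wild type and at 2577, 1906, 3064 and 3816 in the libraries labelled knockout, with no overlap. It fell by 0.68 ± 0.177 (limma-trend FDR 0.0157), was not called without wild type 1 or 2 or labelled knockout 1 (FDR 0.0505 to 0.0555), and was at -0.24 (FDR 0.0843) after subtraction. Zfp638, which silences unintegrated retroviral DNA, differed by -0.54 (FDR 0.0209), lost without wild type 1 or 2 or labelled knockout 1 or 2 (FDR 0.0524 to 0.0713), and by -0.02 after subtraction. Zfp598, the ligase that marks stalled ribosomes, was at 1453 ± 122 against 1504 ± 101, and Zfp207, a spindle factor, at 4149.9 ± 445 against 3757 ± 371 (SD, n = 4 each), neither called.

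The highest mean levels were those of Zfp664 at 4694 normalised reads, Zfp207 at 3953, Zfp106 at 3638, Zfp365 at 3348 and Zfp91 at 3264. Per kilobase of transcript the order differed, with Zfp207 at 1206, Zfp664 at 1147, Zfp219 at 1016 and Zfp365 at 786. Zfp664 was at 4978 ± 207 in wild type and at 4411 ± 473 in the libraries labelled knockout, a log2 difference of -0.18 with a limma-trend FDR of 0.19. Of the 3 members that bind Zmynd8, Zfp592 was lower, by 0.30 (FDR 0.0393, and 0.0676 to 0.116 without wild type 1, 2 or 4 or labelled knockout 1, 2 or 3), and it was at 0.02 after subtraction. Zfp687 and Zfp532 were at -0.03 (FDR 0.893) and -0.09 (FDR 0.547).

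Of 26 measured genes of the corepressor machinery that KRAB proteins use, 1 was higher, the H3K9 methyltransferase Ehmt2, and 8 were lower: Atrx, Cbx5, Atf7ip, Fam208a, Smarcad1, Dnmt3a, Cbx3 and Pphln1. The 30.8% lower stood against 14.8% of all genes. Among genes with a mean of at least 200, 24.9% were lower at 4000 to 6000 nt and 57.0% at 6000 nt or more. The list had a median length of 4748 nt, but Atrx, Dnmt3a, Cbx5, Atf7ip and Fam208a have transcripts of 7590 to 10275 nt. The median log2 difference of the 26 genes was -0.28 and, after subtraction, -0.09, when only Ehmt2 and Atrx were called. Trim28 itself was at 8385 ± 979 against 8818 ± 649 (SD, n = 4 each) with a limma-trend FDR of 0.628, and Setdb1 at 2220.4 ± 149 against 1839.7 ± 211 with an FDR of 0.0629. Atrx, a chromatin remodeller at silent repeats, was at 7410.3, 6515, 5214 and 4596 in wild type and at 2910.2, 2479, 3081 and 4202 in the libraries labelled knockout, with no overlap. Atrx fell by 0.91 ± 0.173 (FDR 0.00578) and by 0.35 after subtraction (FDR 0.00813). Cbx5, which encodes HP1 alpha, fell by 0.50 (FDR 0.00776) and was at -0.01 after subtraction. Atrx and Cbx5 were called in all 8 leave-one-out fits and Ehmt2 in all but that without labelled knockout 1 (FDR 0.0503). The other 6 each lost their call without wild type 1 or 2 and without some of wild type 3 and 4 and labelled knockout 1, 2 and 3 (FDR 0.0517 to 0.13).

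The 145 Zfp genes under the level had 2 higher and 18 lower by limma-trend, with a median of -0.18, and 2 higher and 10 lower after subtraction, with a median of -0.07. Of 35 Zbtb genes, 2 were higher and 12 lower, with a median of -0.25, and after subtraction none was higher by limma-trend (2 at an unadjusted p under 0.05) and 2 were lower, with a median of -0.04. Of 15 Klf genes 1 was higher and 5 lower as deposited, and 3 were higher and 1 lower after subtraction, with medians of -0.19 and -0.16. Of 11 Zkscan genes 4 were lower and none higher by limma-trend, edgeR or DESeq2 or at an unadjusted limma p under 0.05. Of 9 Zscan genes none was called by limma-trend or edgeR, with 1 lower by DESeq2 and 1 at an unadjusted limma p under 0.05. The 5 Zic genes, factors of dorsal neural tissue, had 3 higher and none lower by limma-trend, edgeR or DESeq2 or at an unadjusted limma p under 0.05, with a median of 0.94. After subtraction 3 were higher and 1 lower by limma-trend. Over all genes 14.8% were called higher and 14.8% lower as deposited, and 10.5% and 7.86% after subtraction. The Zbtb genes, 34.3% lower as deposited, had a median length of 5077 nt, and 24.9% of genes of 4000 to 6000 nt with a mean of at least 200 were lower. No difference between the Zfp genes and these families was tested.

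In the fit that carried the length slopes as a covariate, no member was called by limma-trend, where 0.656% of all genes were called higher and 0.438% lower (1.09% either way), and 4 members were higher and 7 lower at an unadjusted p under 0.05. The slope and the groups are nearly confounded, so this fit leaves little to separate them, and no other tool was run with this covariate. Without the 4 libraries of steepest slope, 2 libraries per group remained, and 2 members were higher, Zfp467 and Zfp768, and 8 lower, Zfp26, Zfp462, Zfp704, Zfp281, Zfp317, Zfp945, Zfp367 and Zfp626, where 4.61% and 4.54% of all genes were called (9.15% either way).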

How the data were processed

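RNA was measured in 8 libraries, 4 per group. The deposited signal values are gene read counts that the authors divided by a size factor of each library. The tools named are STAR 2.7.1a for the mm10 build, DESeq2 1.38.3, fastp 0.23.4 and FastQC 0.12.1, per the submitters' processing notes, which give no order of steps. Whole reads were recovered from the steps between values for 100% of values at a tolerance of 1e-04, so library depth is known, and an interval on a level covers counting error only.

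Of 15602 rows, 64 repeats were dropped, and 15538 genes were fitted with limma 3.58.1 (trend, robust) in R 4.3.3 on log2(value + 1). Log2 differences are on that scale, and p-values were adjusted by Benjamini-Hochberg over all genes with a threshold of 0.05. The planned count model was replaced by limma because the deposited values are normalised. edgeR 4.0.16 and DESeq2 1.42.0 were run as alternatives on the recovered reads. For the second fit, each library's smooth (loess, span 0.3) on length and GC of the longest transcript, estimated from 13265 genes with a mean of at least 10, was subtracted. The fits were tested on simulated data.

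Members and gene lists were chosen with earlier results of these data known. Named genes were the 10 called members with the largest change in each direction, the 5 of highest level, the 3 just above and 3 just below the limit, up to 6 a cluster by lowest FDR, the role lists, and up to 6 corepressor genes by lowest FDR. The other genes named, such as those called only after subtraction, and the promoter motif were chosen after their values were seen. Annotation and finger sequences came from GENCODE M21 (GRCm38), promoters from RefSeq (GRCm38.p6). A KRAB motif was a match to a short amino acid pattern in any predicted protein of a gene. It also required at least 2 fingers in the longest predicted protein, and no domain annotation was used. In the annotation, 27 members overlap another measured gene and 6 share more than 10% of their 75-base words with one. Alternatives were scaling, tool, pseudocount, low filters, level limit, cluster gap, trend, covariate, block and left-out libraries.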

Additional observations from a re-analysis of the deposited data

Results flagged for a closer look

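In 10 of 224 groups of 4 libraries, 1 library lay further from the rest than Dixon's 95% limit allows, and chance gives about 1 in 20. The 4 in wild type were Zfp157 in library 1 at 693 normalised reads (477 on average in the other 3), Zfp281 in library 1 at 1213 (1076), Zfp407 in library 1 at 383 (313) and Zfp326 in library 4 at 907 (1006). In the libraries labelled knockout, library 1 stood apart for Zfp628 at 557 (641) and Zfp799 at 315 (308 in the other 3), and library 2 for Zfp467 at 552 (454) and Zfp30 at 249.6 (278). Library 4 stood apart for Zfp141 at 249 (204) and Zfp946 at 225 (276).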

How the results depend on the processing

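Replicate numbers did not pair the libraries, since same-numbered libraries correlated at -0.33, -0.13, -0.19 and -0.28 in their deviations. With the replicate block 1 member was higher (Zfp467) and 1 lower (Zfp26), where 0.972% and 1.17% of all genes were called. With the length and GC trend subtracted 14 members were lower and the median was -0.030, with length alone 21 and -0.079, and with the median-length transcript 33 and -0.089. With the slope covariate 0 were higher and 0 lower, with a median of -0.0023. Without the 4 libraries of steepest slope 2 were higher and 8 lower, with a median of -0.045. Leaving out 1 library gave 5 to 23 higher and 19 to 63 lower.

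The signs listed here are those of named members called as deposited or in the other fit. They turned with the covariate for Zfp106 (0.043), Zfp329 (0.0013), Zfp414 (-0.068), Zfp445 (0.14), Zfp580 (-0.078), Zfp609 (0.26), Zfp637 (-0.055) and Zfp638 (0.0057). With length and GC subtracted they turned for Zfp148 (0.023), Zfp329 (0.026), Zfp41 (0.094), Zfp580 (-0.079), Zfp592 (0.023), Zfp771 (-0.042) and Zfp846 (0.15). With length alone they turned for Zfp41 (0.094), Zfp592 (0.075) and Zfp846 (0.12), and with the median-length transcript for Zfp91 (0.0017). Members called in neither fit also turned, and these are not listed. The 3 members of the chromosome 13 cluster, for example, lay below 0 as deposited and none did with length and GC subtracted. The cause was not tested.

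Counts stayed within 1.5 times under TMM (17 higher, 51 lower), library-size scaling (12 and 62), edgeR (17 and 52), DESeq2 (17 and 59), limma-voom (18 and 52), a pseudocount of 0.1 (17 and 49), a minimum mean of 10 (17 and 54) and level limits of 100 (18 and 59) and 400 (14 and 39). With gaps of 0.5 and 2 Mb, 9 of 14 and 14 of 20 clusters had a median below 0. With 4 libraries per group, the number of libraries and the length slopes limited these comparisons.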
